A study of Homo sapiens with 3 samples.

Results

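Nucleolar ribosome biogenesis factors are the proteins that transcribe, modify, cut and fold ribosomal RNA and build it into ribosomal subunits. A set of 38 such genes was chosen by what the proteins do, and every array probe whose gene symbol in the platform annotation was in the set was taken. Of the 38 genes, 35 had at least 1 probe, with 48 probes in all, among 18639 named genes on the array. DDX18, GNL3 and EBNA1BP2 were not analysed here. All 35 genes were detected on every array, so the filter on dim probes removed no member.

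The arrays measured total RNA of HT29, an established human colorectal cancer cell line grown in low-glucose medium with fetal bovine serum. Fresh medium held either DMSO as the solvent control or a derivative of linderapyrone at 5 or 20 µM, and the cells stayed in it for 24 h. Each of the 3 groups was 1 array of 1 sample of the same line, and the labels name neither the derivative's structure nor any other treatment. The labels disagree on the unit of dose, which is mM in the titles and µM in the treatment fields and descriptions, and µM is used here. The study asked which genes differ between DMSO and the derivative. No group had a replicate, so there is no test and no p-value, and nothing below can be set against the spread between cultures.

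Ribosome production begins in the nucleolus, where RNA polymerase I transcribes the long precursor of the ribosomal RNAs. Small nucleolar ribonucleoproteins (snoRNPs) then guide the methylation and pseudouridylation of that precursor, and large assemblies cut it and fold it into the pre-40S and pre-60S particles. The genes of this pathway are commonly expressed together in growing cells, and many carry the E-box CACGTG, a DNA sequence bound by MYC and related factors. Proliferating colon cancer cells have large nucleoli and high demand for ribosomes.

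The E-box did not enter the choice of the members and was looked for in their promoters. RefSeq promoter windows of assembly GRCh38.p14, each with 250 bases before and 50 bases from the gene's start, were found for 30 of the 35 members and held 38 windows. The windows of 11 members, 36.7%, contained CACGTG, whose reverse complement has the same letters. Among protein-coding genes on the array that had a window the share of genes was 11.0%. By windows it was 28.9% for the members, 8.35% for these protein-coding genes and 7.26% for all 35116 windows in the table. In 7 of these 11 members the E-box lay after the annotated start, within the first 50 bases, as the first E-box did in 271 of the 2548 windows in the table that held one, 10.6%. NOP58, NOLC1, RRP1B, RRP12 and BOP1 had no window. The E-boxes of 6 members are shown because these members span the range of responses described below. The E-box is in capitals and the sequences are written 5′ to 3′ on the strand of the gene.
NOP2, chr12:6568242-6568266, minus strand, E-box starting at base 36 of the gene: gtccggattgCACGTGgagggccgc
DDX21, chr10:68956606-68956631, plus strand, E-box starting 31 bases before the gene: ccgggtgtccCACGTGgtccccggcg
RRP9, chr3:51941894-51941919, minus strand, E-box starting 5 bases before the gene: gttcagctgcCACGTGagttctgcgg
WDR43, chr2:28894660-28894685, plus strand, E-box starting at base 4 of the gene: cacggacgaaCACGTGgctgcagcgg
FBL, chr19:39846358-39846383, minus strand, E-box starting at base 7 of the gene: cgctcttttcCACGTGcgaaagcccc
NOP10, chr15:34343132-34343157, minus strand, nearer of its 2 E-boxes, starting 11 bases before the gene: aattgacgaaCACGTGacgcggtcgg
The first 4 of these genes had more signal at 20 µM than in DMSO and the last 2 had less. Over all members with an E-box, 6 of 11 were above DMSO at 20 µM, with a median log2 ratio of 0.04, and over the 19 members with a window but no E-box 13 were above it, with a median of 0.14. A match to these letters is a description of the sequence and does not show that a factor binds there.

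Values below are normalized signals, in arbitrary units, with an offset of 50 that makes the ratios of dim probes smaller than they would be without it. Of 24460 gene probes, 85.6% to 86.2% were detected on each array, and the median spot signal was 107 to 117. The members' DMSO signals before normalization stood between 1.12 times the detection threshold of that array, for RRP1B, and 431 times it, for NPM1. RRP1B, POLR1A and PES1 were under 2 times the threshold. Over genes with 2 detected probes, the technical SD of a single log2 ratio was 0.14 for 20 µM against DMSO, 0.11 for 5 µM against DMSO and 0.12 for 20 against 5 µM. These genes were of every brightness, and no SD was computed for bright genes alone. Ratios spread more widely among bright genes, where most members lay, so the technical SD may be too small for those members. Of the colon epithelial markers, 9 of 9 on the array were detected on all 3 arrays and KRT18, a keratin of simple epithelia, was at 525 to 681 times the threshold, while CDX2 was at only 1.07 to 1.12 times it. Of the markers of other cell types on the array, 4 of 6 fibroblast, 3 of 4 blood and immune and 3 of 4 endothelial genes were above the threshold on all 3 arrays. LYZ, which encodes lysozyme, stood at 152 to 192 times the threshold, DCN at 2.64 to 2.80 times it and the rest of those detected at under 2 times it. The stromal collagens COL1A1 and COL1A2, the leukocyte marker PTPRC and the endothelial marker PECAM1 were not above it on any array. The part of other cell types in the results was not tested. Where no other way of processing is named, the values, orders and rankings that follow are those of normexp correction and quantile normalization.

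With normexp and quantile normalization, a minority of the nucleolar factors had at least 25% more signal at 20 µM than in DMSO. None had less by the same ratio. NOP2, NOB1, DDX21, RRP12, POLR1B and NOP16 were at least 25% higher, which is 6 of 35 members or 17.1%, against 5.85% of all 16062 genes detected on both arrays. None of the 35 was lower by the same ratio, which is a drop of 20% or more, against 7.32% of all genes, and none was 2-fold apart, against 0.766% of all genes. The median log2 ratio of the members was 0.11, with 22 of 35 above 0, where all genes had a median of 0.01 with 52.8% above 0. More cells with a transcript and more of it per cell cannot be told apart in such bulk samples. The spread of ratios widens with brightness on these arrays, and 25 of the 35 members lay among the 4016 brightest genes. Of those bright genes 14.2% were higher and 16.1% lower by that measure, as were 5 of the 25 bright members, 20.0%, and 0 of them. The members' share of higher genes was thus near that of other bright genes, and the median log2 ratio of these 25 members was 0.14 where that of the bright genes was 0.00. Median scaling, which sets only the medians of the arrays equal, left the median of the 35 members at 0.02 and put that of the bright genes at -0.11, with 17 of the 25 bright members above it. In the authors' value table, where more of all genes pass the threshold, 7 of 35 members were at least 25% higher against 15.8% of all genes, and 0 at least 20% lower against 17.3%.

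**Figure D1:**
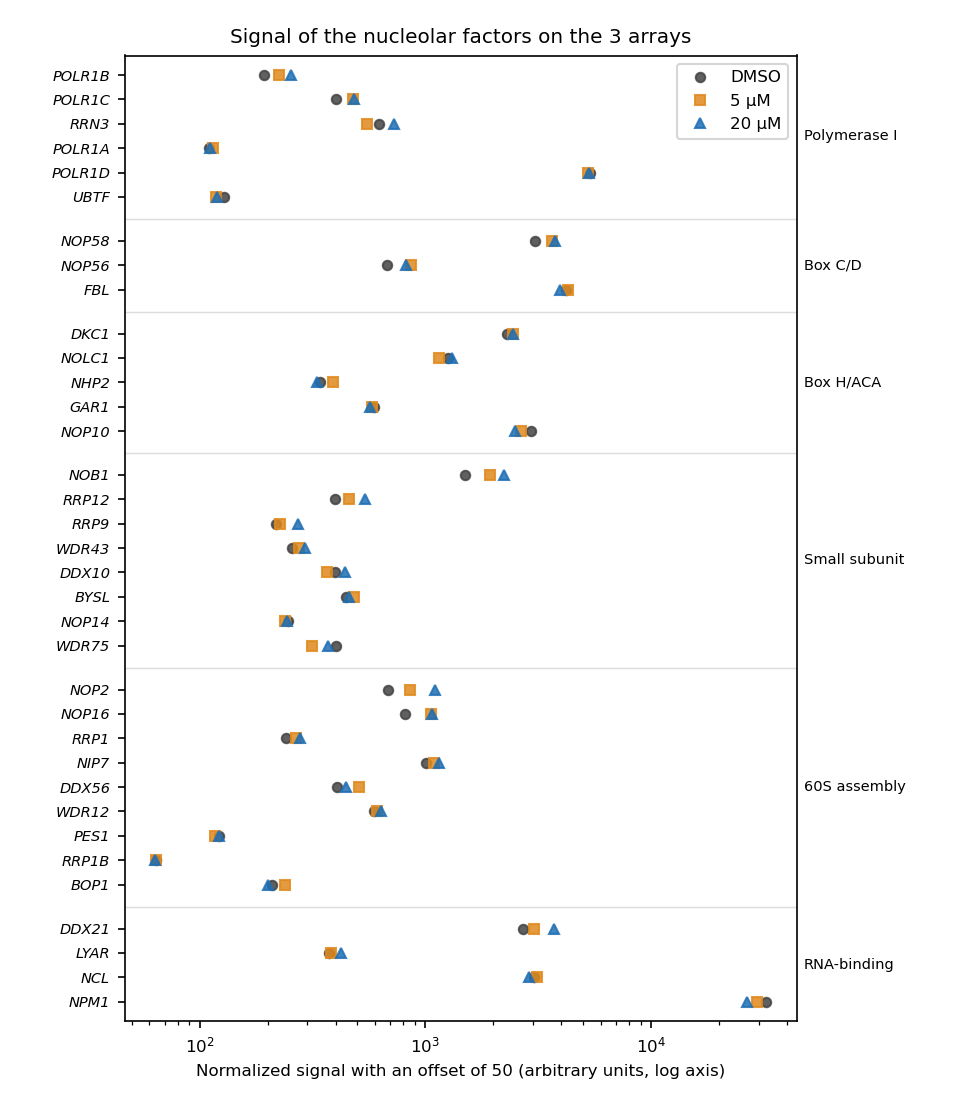
Normalized signal with the offset (log axis, arbitrary units) of the 35 nucleolar factors in DMSO (circles), at 5 µM (squares) and at 20 µM (triangles), 1 array each, grouped by role. NOP2 goes from 685 in DMSO to 852 and 1103, while RRP1B stays near 64 on all arrays, close to the detection limit. Positions of different genes on the axis come from different probes and are not comparable.

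Among the genes of ribosomal RNA transcription, the catalytic core and the basal factors did not share 1 order of levels. POLR1B, the second-largest subunit of RNA polymerase I, had normalized signals of 193, 224 and 255, given here and below in the order DMSO, 5 µM and 20 µM. Each dose was thus above the one before, and the signal at 20 µM was 1.32-fold that of DMSO. POLR1C, which polymerases I and III share, had 403, 479 and 485, so that both doses lay above DMSO and close to each other. Under median scaling POLR1C was nearer to DMSO at 5 µM, with log2 ratios of 0.04 at 5 µM and 0.16 at 20 µM. RRN3, the factor that carries polymerase I to the promoter, had 625, 550 and 725. It was lowest at 5 µM, and its log2 ratio of 0.40 for 20 against 5 µM was the highest of any member in that comparison. A second probe of RRN3 had the same order, with -0.26 for 5 µM against DMSO and 0.28 between the doses, though at 20 µM it was level with DMSO at 0.03. The largest subunit POLR1A, with 111, 115 and 111, and POLR1D, also shared with polymerase III, with 5373, 5242 and 5324, hardly differed between arrays. Under median scaling POLR1D had log2 ratios of -0.29 at 5 µM and -0.17 at 20 µM. The bright genes had medians of -0.21 and -0.11 under that scaling. UBTF, which binds and keeps open the ribosomal DNA, had 129, 118 and 120. Its log2 ratios of -0.13 and -0.10 were near 1 technical SD in size.

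The box C/D snoRNP, which methylates ribosomal RNA on the ribose, had different values for its scaffold and its enzyme. The scaffold proteins NOP56 and NOP58 were higher at both doses. NOP56 had 677, 862 and 821, which gave log2 ratios of 0.35 and 0.28. NOP58 had 3067, 3654 and 3739, with log2 ratios of 0.25 and 0.29. For both genes the 2 doses lay closer to each other than to DMSO. Under median scaling this held for NOP56, with 0.14 and 0.17, but not for NOP58, with 0.03 at 5 µM and 0.16 at 20 µM. The methyltransferase fibrillarin, encoded by FBL, had 4210, 4270 and 3931. Its log2 ratios of 0.02 and -0.10 were within 1 technical SD of 0, but under median scaling they were -0.22 and -0.26.

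Of the box H/ACA group, which makes pseudouridine, none of the 5 genes was 25% higher or 20% lower in any comparison with normexp and quantile normalization. Under median scaling NOP10 was past 20% lower, with log2 ratios of -0.40 at 5 µM and -0.35 at 20 µM, and so was NOLC1 with -0.35 at 5 µM. The pseudouridine synthase dyskerin, encoded by DKC1, had 2288, 2446 and 2453 on its brighter probe, all nearly level. A second probe of DKC1, annotated to the same transcript, went the other way, with log2 ratios of -0.54 at 5 µM and -0.29 at 20 µM. At 5 µM that gap between probes was more than 2 SD of such gaps, so no direction can be given for DKC1. NOP10, a small structural subunit, had 2928, 2658 and 2488, and its log2 ratio of -0.24 at 20 µM was the second-lowest of the members. GAR1, an RNA-binding subunit, had 594, 579 and 568, all within a narrow range. Under median scaling its log2 ratios were -0.24 at 5 µM and -0.17 at 20 µM. NHP2, which binds the guide RNA, had 343, 389 and 332. It was highest at 5 µM, though not under median scaling, and its log2 ratio of -0.23 between the doses was close to 2 technical SD. NOLC1, a chaperone of snoRNPs, had 1255, 1154 and 1307, lowest at 5 µM.

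Of the factors of the small subunit, 7 of 8 were higher at 20 than at 5 µM, with a median log2 ratio of 0.22, or 0.08 with the scanner's background column. For all genes the median of this comparison was 0.00, with 49.5% above 0, and for 47 other small subunit genes it was 0.04, with 30 above 0. NOB1, the nuclease that makes the last cut of 18S ribosomal RNA, had 1497, 1934 and 2239, in step with dose and 1.50-fold higher at 20 µM. A second NOB1 probe, with a DMSO signal of only 98.4 before normalization, gave log2 ratios of -0.005 at 5 µM and 0.03 at 20 µM. RRP12, an export factor of pre-ribosomes, had 398, 460 and 540. Its second probe gave a log2 ratio of 0.40 at 20 µM, close to the 0.44 of the first. At 5 µM the second probe was level with DMSO at 0.01, against 0.21 for the first. RRP9, a U3 snoRNP protein, had 219, 228 and 272, so that the gap to DMSO was nearly all at the higher dose. WDR43, a subunit of the processome that also acts on transcription of ribosomal DNA, had 256, 276 and 294. On their first probes these 4 genes were lowest in DMSO and highest at 20 µM. RRP9 and WDR43 lost that order under median scaling, where they were below DMSO at 5 µM with log2 ratios of -0.10 and -0.05. Leaving the scanner's background column aside, the lowest log2 ratio of RRP12 at 5 µM under any processing was 0.005, so its middle step is uncertain.

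The other small subunit factors did not share that order. WDR75, a processome subunit of the same subcomplex as WDR43, had 401, 313 and 370. Its log2 ratio of -0.35 at 5 µM made it the only member at least 20% lower in any comparison with normexp and quantile normalization. The helicase DDX10 was also lowest at 5 µM, with 399, 368 and 439. BYSL, which stays on pre-40S particles until they reach the cytoplasm, had 447, 483 and 460, and its second probe gave log2 ratios of 0.38 at 5 µM and 0.26 at 20 µM. NOP14, a core processome protein, was nearly level with 247, 239 and 244. Under median scaling its log2 ratios were -0.20 at 5 µM and -0.10 at 20 µM.

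In the 60S group NOP2 stood apart from the rest. NOP2, a methyltransferase of 28S ribosomal RNA also known as the proliferation antigen p120, had 685, 852 and 1103. It was higher at each dose, was 1.61-fold higher at 20 µM and lay in the top 1.30% of all genes in that comparison. A second NOP2 probe gave log2 ratios of 0.47 at 5 µM and 0.62 at 20 µM, against 0.31 and 0.69 for the first. NOP16, a nucleolar protein found on pre-60S particles, had 809, 1056 and 1065. Both doses lay above DMSO by nearly the same amount, with a log2 ratio of 0.38 at 5 µM, the highest of the members at that dose. Under median scaling the log2 ratio was 0.17 at 5 µM and 0.29 at 20 µM. On a second probe the ratio of NOP16 at 5 µM was 0.07, a gap of more than 2 SD, while at 20 µM it was 0.25. The helicase DDX56 had 405, 507 and 447, highest at the lower dose.

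PES1, BOP1 and WDR12 form the PeBoW complex, which is needed to process the 32S precursor. WDR12 had 589, 609 and 637, an order lost under median scaling and in the authors' value table. Leaving the scanner's background column aside, its lowest log2 ratios were -0.16 at 5 µM and 0.01 at 20 µM. BOP1 had 210, 238 and 201, highest at 5 µM. Its log2 ratio of -0.24 between the doses was the lowest of the members and just past 2 technical SD, and its second probe gave -0.17. PES1, close to the detection limit, had 122, 117 and 122. The biogenesis factors NIP7, with 1004, 1097 and 1147, and RRP1, with 241, 267 and 278, had log2 ratios of 0.19 and 0.21 at 20 µM. Both were lowest in DMSO, but lowest at 5 µM under median scaling. RRP1B, the paralog of RRP1, had 64.4, 64.1 and 63.7, barely above the blank spots, so that a difference could not be seen at this signal.

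The abundant RNA-binding proteins of the nucleolus went in both directions. DDX21, a helicase that senses polymerase I activity and acts on snoRNAs, had 2701, 3021 and 3706, which is 1.37-fold higher at 20 µM. Its log2 ratio of 0.16 at 5 µM turned to -0.09 under median scaling, so that the place of the lower dose depends on the scaling. LYAR, a nucleolar zinc finger protein, had 374, 381 and 421. It lost this order under median scaling, with cyclic loess and in the authors' value table. Leaving the scanner's background column aside, its lowest log2 ratio at 5 µM was -0.18. Nucleolin, encoded by NCL, had 3042, 3134 and 2885, within 1 technical SD of DMSO at both doses. Under median scaling its log2 ratios were -0.18 at 5 µM and -0.19 at 20 µM. NPM1, which encodes the nucleolar histone chaperone nucleophosmin, had 32346, 29355 and 26456. Its log2 ratio of -0.29 at 20 µM was the lowest of the members and about 2 technical SD from 0. With cyclic loess it was -0.18 and in the authors' value table -0.17, and there, as under median scaling, NOP10 was lower. The spot signals of NPM1 before normalization were 35569, 25494 and 28204, so that the order of the doses depends on the normalization. Its probe may also bind transcripts of the processed pseudogenes of this gene, and that was not tested.

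**Figure D2:**
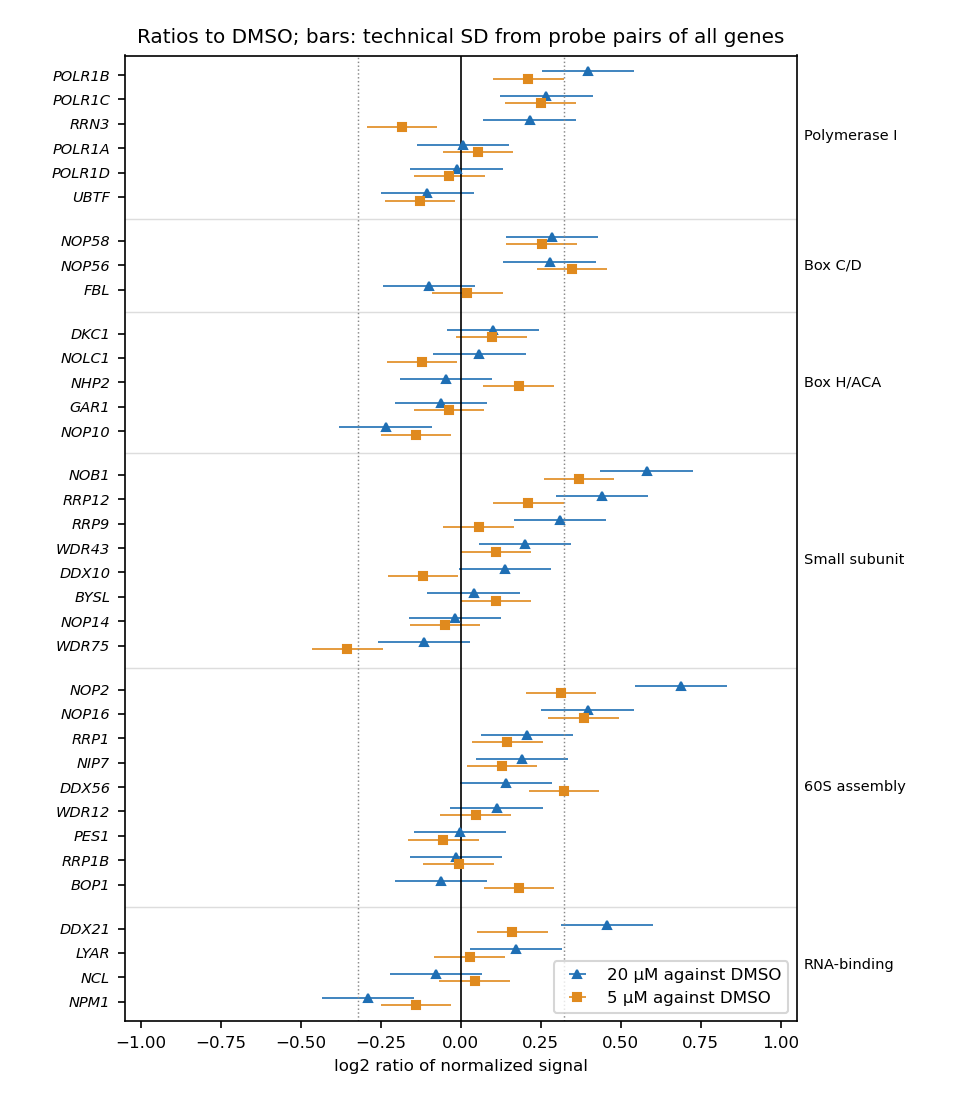
Log2 ratios of normalized signal at 20 µM (triangles) and 5 µM (squares) against DMSO for the 35 nucleolar factors, grouped by role; bars are the technical SD of a single ratio, 0.14 and 0.11, from pairs of probes over all genes, and dotted lines mark values 25% higher and 20% lower. NOP2, NOB1, DDX21, RRP12, POLR1B and NOP16 lie beyond the right dotted line at 20 µM, and both series of points share the same DMSO array.

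At 5 µM the difference from DMSO was smaller and mixed. NOP16, NOB1, NOP56 and DDX56 were at least 25% higher, 4 of 35 members or 11.4%, against 1.82% of all 16075 genes and 5.25% of the 4019 brightest, which held all 4. WDR75 was the 1 member at least 20% lower, against 1.87% of all genes, and none was 2-fold apart, against 0.056% of all genes. The median log2 ratio was 0.06 with 23 of 35 above 0, where 52.0% of all genes were. Median scaling turned the members' median at 5 µM to -0.10, with 0 members at least 25% higher, against 0.585% of all genes, and 6 at least 20% lower, against 9.39%. These 6 were among the 25 bright members, and 27.6% of all bright genes were lower by that much. Under it the bright genes had a median of -0.21, and 16 of the 25 members among them were above that median, against 17 with quantile normalization. The direction of the members against DMSO at 5 µM therefore turned with the scaling, while most of them stood above the median of the bright genes under both; with the scanner's background column 8 of the 25 did. In the authors' value table the members' median at 5 µM was 0.01, with NOP16 the 1 member at least 25% higher, against 6.35% of all genes, and WDR75 the 1 at least 20% lower, against 12.6%.

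Between the doses, 23 of 35 members had more signal at 20 than at 5 µM, with a median log2 ratio of 0.03, or 0.12 under median scaling, where that of the bright genes was 0.09. NOP2 and RRN3 were at least 25% higher, 2 members or 5.71%, against 3.98% of all 16036 genes, and none was at least 20% lower, against 3.99%. Among the 4009 brightest genes 9.73% were higher, and both members were among the 26 bright members, of which they are 7.69%. No member was 2-fold apart, against 0.224% of all genes. In order of level, 15 of 35 members, 42.9%, had DMSO lowest and 20 µM highest, an order that 24.5% of all genes detected on the 3 arrays had. The reverse order, with 20 µM lowest and DMSO highest, was found for NPM1, NOP10, GAR1 and RRP1B, which is 11.4% of the members against 23.0% of all genes. Under median scaling 8 members, 22.9%, had the first order, against 18.5% of all genes, and with the scanner's background column 5 members, 14.3%, had it against 20.5%. Many of these steps were within 1 technical SD, and RRP1B was near the detection limit.

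For 12 members a second probe was detected on all arrays. At 20 µM against DMSO 8 of the 12 second probes had the sign of the first, with a median gap of 0.09 between probes, and only the dim NOB1 probe lay more than 2 SD of such gaps away. At 5 µM 8 of 12 had the same sign, with a median gap of 0.18 and wide gaps for NOP16, DKC1 and NOB1. Between the doses 10 of 12 had the same sign and no gap was that wide.

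A wider list of 146 other genes of ribosome production, of which 139 were on the array and detected, was set beside the members. At 20 µM their median log2 ratio was 0.08, or 0.01 under median scaling, with 60.4% above 0, against 52.8% of all genes. Of the 139, 20 or 14.4% were at least 25% higher, against 5.85% of all genes and 14.2% of the bright genes. A further 6 were at least 20% lower, against 7.32% of all genes and 16.1% of the bright genes. The list was not limited to bright genes, and how many of the 139 were bright is not given here. The other 60S assembly genes had a median of 0.15 with 35 of 47 above 0. Their highest values were 0.65 for SURF6, 0.59 for RPF2, a factor that brings in the 5S particle, 0.50 for ZNF622 and 0.48 for RSL1D1. Among 47 other small subunit genes the median was 0.11, with 0.74 for the kinase RIOK2, 0.73 for IMP3, a U3 snoRNP protein, 0.42 for NOL7 and 0.40 for HEATR1. The 15 other genes of polymerase I transcription had a median of -0.01, and they divided between TAF1A at 0.54 and TAF1D at 0.49, subunits of the promoter factor SL1, and the shared polymerase subunits POLR2L at -0.41 and POLR2F at -0.31. The 10 other snoRNP genes had a median of -0.04, with the assembly ATPase RUVBL1 at -0.53 and its partner PIH1D1 at -0.33, against 0.28 for ZNHIT6 and 0.19 for SNU13. The 20 genes of the exosome and related nucleases had a median of 0.02, from -0.65 for POP5 to 0.62 for POP7, both of RNase P and MRP, with EXOSC9 at -0.43 and RPP40 at 0.43. At 5 µM the whole list had a median of 0.03, which turned to -0.12 under median scaling and -0.02 in the authors' value table. IMP3 at 0.69, SURF6 at 0.64 and POP7 at 0.63 were within 0.05 of their values at 20 µM.

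The cytosolic ribosomal proteins, which these factors help to assemble, had a lower median than the members at 20 µM. With the scanner's background column it was higher, at 0.02 against -0.036. Between the doses both medians were 0.03, and under median scaling these proteins stood at 0.17 against 0.12. The 68 cytosolic ribosomal protein genes had a median log2 ratio of 0.03 at 20 µM, which median scaling turned to -0.02. Of them 0 were at least 25% higher, against 5.85% of all genes. RPS26 at -0.57 and RPL6 at -0.35 were at least 20% lower, against 7.32% of all genes. RPL36 at 0.30 and RPL10L at 0.29 were the highest. The 74 mitochondrial ribosomal protein genes, which the nucleolus does not assemble, were mostly lower, with 54 below 0. Their median was -0.19, or -0.30 under median scaling. Of these 74 genes 17 were at least 20% lower, against 7.32% of all genes and 16.1% of the bright genes. How many of the 74 were bright is not given here. MRPL16 stood at -0.85, MRPS34 at -0.65, MRPL23 at -0.63 and MRPL51 at -0.58. MYC, a known activator of nucleolar genes, had log2 ratios of 0.28 at 5 µM and 0.18 at 20 µM. Before normalization its spot signal was lower at 5 µM than in DMSO and level with DMSO at 20 µM. The positive ratios of MYC therefore depend on the normalization, and its values under other scalings are not given here. These are descriptions of 3 arrays, and the differences between the groups of genes were not tested. The E-box was found in the windows of 26.2% of the other ribosome production genes, 11.8% of mitochondrial and 6.06% of cytosolic ribosomal protein genes.

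**Figure D3:**
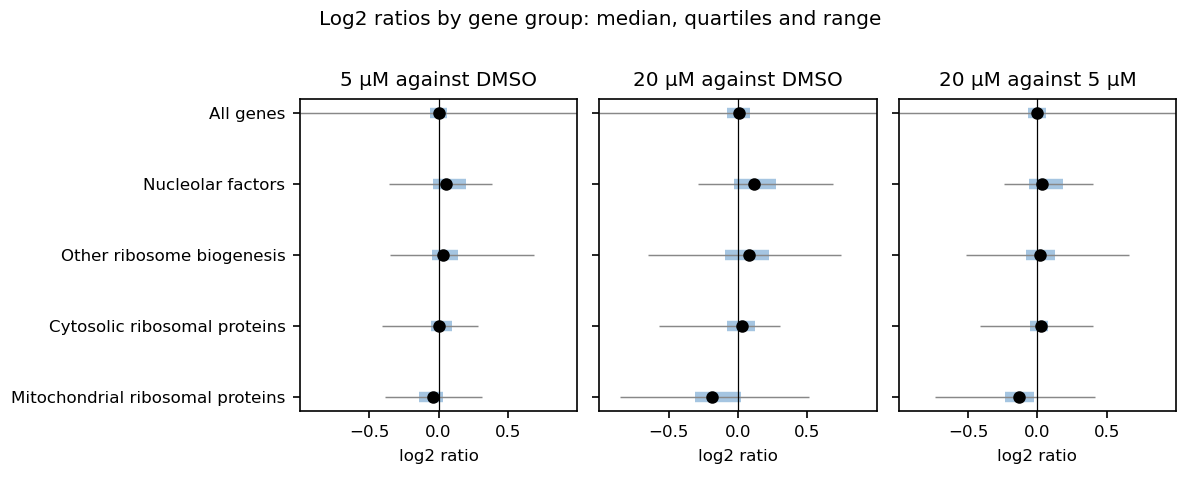
Log2 ratios of all genes, the 35 nucleolar factors, 139 other ribosome production genes, 68 cytosolic and 74 mitochondrial ribosomal protein genes in the 3 comparisons; points are medians, thick bars run from the lower to the upper quartile and thin lines the range, which for all genes goes beyond the axis. At 20 µM against DMSO the medians are 0.11 for the nucleolar factors, 0.08 for the other ribosome production genes, 0.03 for cytosolic and -0.19 for mitochondrial ribosomal proteins.

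The values of the 6 members at least 25% higher at 20 µM were compared under 8 other ways of processing that leave the scanner's background column aside. Among the 8 are dropping the detection filter and making it stricter, which decide only which genes are kept and cannot change a value. The log2 ratio stayed between 0.57 and 0.72 for NOP2, 0.32 and 0.46 for DDX21, 0.33 and 0.48 for RRP12, 0.30 and 0.50 for POLR1B, and 0.29 and 0.41 for NOP16. That of NOB1 lay between 0.31 and 0.59, its lowest value being the mean with its dim second probe. Of the 35 members, 28 had the same sign at 20 µM under all of these that gave a value, 20 at 5 µM and 27 between the doses. Leaving out background correction or using an offset of 16 keeps the ranks on each array. With quantile normalization neither could therefore turn a sign. The mean over probes could turn one only for the 12 members with a second probe. The background column of the scanner files turned the members' median at 20 µM to -0.036 and gave FBL a log2 ratio of 4.66. Its values were higher where the spot's own signal was higher across the probes of an array, with Spearman's rho of 0.967 to 0.971 over 24460 probes, and its median was 63.3 to 68.3 at blank spots but 6668 to 8192 at the 245 brightest probes. For FBL the column held 4886 in DMSO, above the spot signal of 4840, and 1515 at 20 µM.

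**Figure D4:**
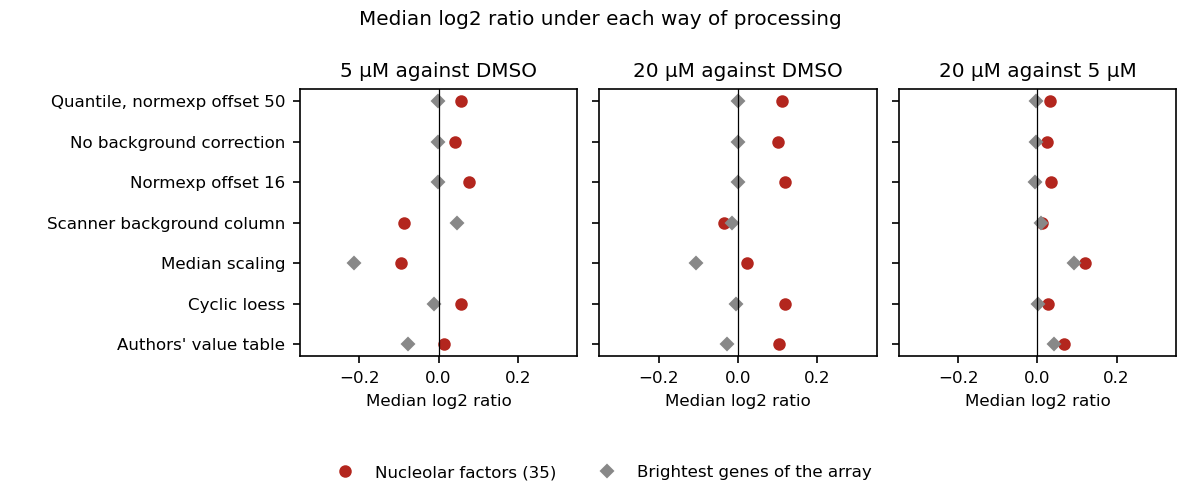
Median log2 ratio of the 35 nucleolar factors (circles) and of the 4009 to 4019 brightest genes (diamonds) under 7 ways of correcting and scaling the signals, for the 3 comparisons. At 5 µM median scaling puts the factors at -0.10 and the bright genes at -0.21, and the factors lie to the right of the bright genes in every row but that of the scanner background column at both doses against DMSO.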

How the data were processed

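RNA of 3 HT29 samples was labelled as amino allyl aRNA with a dye for 1-colour Toray arrays, per the labels' protocols. The deposited scanner files hold each probe's median spot intensity, linear and without background subtraction, read at 3 gains, per the file headers. The authors' deposited value table is also a linear intensity, roughly blank-subtracted and scaled to a common median of 25, as its fit to the scanner signal showed. Neither source names the software.

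Normexp correction (limma 3.58.1, R 4.3.3, all spots, offset 50) was followed by log2 and quantile normalization over 24460 gene probes; Python 3.11.15 with pandas 2.3.3, numpy 2.4.6 and matplotlib 3.10.9 did the rest. The steps were tested on simulated data. A probe was detected above the mean plus 2 SD of 480 blank and negative control spots, trimmed by 5% at each end. The probe detected on most arrays and then brightest stood for a gene. Of the probes, 21707 had 1 symbol, 0 several and 2753 none, and 21675 matched a gene record of GRCh38.p14. The technical SD came from 2007, 2017 and 2003 genes with 2 detected probes. The members, gene lists and thresholds (25% higher or 20% lower, and 2-fold) were chosen with earlier results of these data known. All members were named, and of the other lists the 4 genes farthest from 0 at 20 µM in each role. Protein sequence features listed in the design were not analysed here. The number of arrays limits the precision.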

Additional observations from a re-analysis of the deposited data

How the results depend on the processing

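With 1 array per group no replicate could be left out, and no paired analysis was possible because no group has a second sample. At 20 µM against DMSO 35 of 35 member values moved by less than the technical SD without background correction or with offset 16. So did 35 of 35 with cyclic loess and in the authors' value table, 33 under median scaling and 33 with the mean over probes. The mean over probes could move only the 12 members with a second probe, and of these DKC1 and NOB1 moved. The detection filter decides only which genes are kept and cannot change a member's value. Without it all 35 were kept, and a stricter filter kept 31. At 5 µM median scaling moved 31 of 35. With the scanner's background column only 8, 6 and 7 of 35 moved by less at 20 µM, at 5 µM and between the doses.

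The members' median log2 ratio turned to -0.036 at 20 µM and -0.086 at 5 µM under the scanner's background column, and to -0.096 at 5 µM under median scaling. Relative to the median of all genes these were -0.040, -0.095 and -0.078. In the same order, the background column gave 10, 12 and 8 members at least 20% lower, against 9.64%, 8.02% and 9.04% of all genes, and 4, 7 and 7 members 2-fold apart, against 5.58%, 4.11% and 5.06%. Between the doses it gave 13 at least 25% higher, against 8.86%. Single genes turned under it: NOP2 to -0.41 and NOP16 to -1.28 at 20 µM, RRP12 to -0.33 at 20 µM, NOP16 to -0.89, NOP56 to -0.40 and DDX56 to -0.15 at 5 µM, and NOP2 to -0.98 between the doses.

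Median scaling gave 1 member at least 20% lower at 20 µM, against 11.1% of all genes, 0 higher and 6 lower at 5 µM, against 0.585% and 9.39%, and 7 higher between the doses, against 6.20%. No background correction gave 2 higher and 0 lower at 5 µM, against 1.13% and 0.921%. The authors' value table gave 1 higher at 5 µM, against 6.35%, and 5 between the doses, against 14.6%. The mean over probes gave 1 between the doses, against 3.64%. The causes were not tested. Dim members such as RRP1B, POLR1A and PES1 are limited by signal near the blank level.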
